A study of Mus musculus with 6 samples.

Results

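A set of 10 genes of the S100, galectin and annexin families were read in *Nr4a3*-Blue+Red+ CD4+ T cells re-activated under checkpoint blockade. They were *S100a4*, *S100a6*, *S100a10*, *S100a11*, *S100a13*, *Lgals1* (galectin-1), *Anxa2*, *Anxa4*, *Anxa5*, and *Anxa6*, 10 of the 47643 genes in the count table, and all 10 had at least 10 reads over the 6 samples, as did 11877 genes in all. *S100a4* and *S100a6* were chosen by their measured values, because they were lower with anti-PD1 than with isotype in these samples and higher with strong peptide in a separate dose experiment that was not analysed here, and the remaining 8 were taken as related genes. The question was how the family behaved when CD4+ T cells met antigen again with PD1 or Lag3 blocked.

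The mice were of the Tg4 Tiger *Nr4a3*-Tocky strain. All of them, controls included, carried the Tg4 T cell receptor transgene for myelin basic protein (MBP) peptide, an *Il10*-GFP reporter, and a fluorescent Timer protein driven by *Nr4a3*, which is blue when new and matures to red. Every mouse received 80 μg of peptide and, 24 h later, 800 μg of antibody, followed after 30 min by 8 μg of peptide, and splenic Blue+Red+ cells were sorted 4 h after that. The antibody was an isotype pool, anti-PD1 (clone 29F.1A12), or anti-Lag3, with 2 samples in each of the 3 groups, from biological replicate mice. The study used male and female mice, and its methods give neither the sex of each sample nor the age. A single transgenic receptor and a gate on cells that had responded to both peptide doses limit what the groups can represent. Libraries captured the 3′ ends of transcripts, and total counts ran from 2107715 to 2648920 per sample, so that 3 reads of a gene corresponded to between 1.11 and 1.44 CPM (reads per 1e+06 after TMM scaling). Summed over 10 CD4 T cell markers, led by *Trac*, *Cd2*, and *Cd28*, the level lay between 2110 and 2388 CPM in all 6 samples, with no marker at 0 in any of them. Its members did not all keep that level, since *Cd5*, a receptor that dampens T cell receptor signals, rose with anti-PD1 (log2 fold change 1.01, SE 0.19, adjusted p = 0.00154, edgeR), the only call among the 10 and not made without anti-PD1 replicate 2 (0.76). *Cd3d*, *Cd3e*, *Cd3g*, and *Cd4* had values of −0.34, −0.38, −0.42, and −0.32 in that comparison and were not called.

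S100 proteins are small EF-hand proteins that change shape on binding calcium and then bind partner proteins. Galectin-1 is a lectin that binds β-galactosides on cell-surface glycoproteins, and annexins bind acidic phospholipids of membranes when calcium rises. T cell receptor signaling releases calcium, and in T cells *S100a4*, *S100a6*, *Lgals1*, and *Anxa2* are known as genes of effector, memory, and regulatory populations more than of naive cells.

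*S100a4* encodes a partner of non-muscle myosin that is linked to cell motility, and *S100a6* encodes calcyclin, which binds the ubiquitin ligase adaptor encoded by *Cacybp*. Both lie on the plus strand of mouse chromosome 3 (GRCm38), *S100a4* at chr3:90603771-90606045 and *S100a6* at chr3:90612882-90624181, with 6836 bases and 1 further gene between them. The 300 bases around the start of each gene are shown because these are the pair chosen on expression. They run from 250 bases upstream to 50 downstream in RefSeq (GRCm38.p6, plus strand, 5′ to 3′), at chr3:90603520-90603819 for *S100a4* and chr3:90612644-90612943 for *S100a6*, with motif matches in capitals.
S100a4: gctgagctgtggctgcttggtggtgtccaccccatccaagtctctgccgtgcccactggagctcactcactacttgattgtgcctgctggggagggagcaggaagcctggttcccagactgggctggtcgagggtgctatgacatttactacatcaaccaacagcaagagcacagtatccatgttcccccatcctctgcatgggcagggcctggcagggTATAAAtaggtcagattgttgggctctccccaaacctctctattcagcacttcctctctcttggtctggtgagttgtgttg
S100a6: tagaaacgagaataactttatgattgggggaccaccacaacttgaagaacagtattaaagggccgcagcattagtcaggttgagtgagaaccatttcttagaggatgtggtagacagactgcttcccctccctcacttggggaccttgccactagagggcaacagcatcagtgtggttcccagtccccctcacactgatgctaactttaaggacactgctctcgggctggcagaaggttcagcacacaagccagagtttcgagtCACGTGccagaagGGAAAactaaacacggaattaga
A set of 5 motifs was searched on both strands, and no matches overlapped in these windows. The TATA box was searched as TATAAA and the motif of AP-1 factors as TGANTCA. The core bound by NFAT factors was searched as GGAAA. The GC box was searched as GGGCGG, and the E-box as CACGTG. Positions count from the RefSeq start of the window as 0, which is not the first base of the gene coordinates given above. The *S100a4* window held TATAAA, starting at position −31, and TATAAA was present in 13.6% of all 32851 RefSeq windows of this length. The *S100a6* window held CACGTG at 14, as did 7.15% of windows, and GGAAA at 27, as did 61.3%. TGANTCA (7.81% of windows) and GGGCGG (35.7%) were in neither. No motif was shared by the pair, and a match describes letters, not a bound site.

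*S100a4* had few reads in every sample. The isotype samples held 7 and 5 reads, the anti-PD1 samples 4 and 2, and the anti-Lag3 samples 12 and 4, 34 in all. In CPM these were 3.30 and 2.01 with isotype, 1.92 and 0.818 with anti-PD1, and 5.06 and 1.49 with anti-Lag3. The anti-PD1 samples lay below both isotype samples, by a narrow margin (1.92 against 2.01), while the anti-Lag3 samples spanned the isotype range on both sides. The counting intervals were wide, from 1.33 to 6.80 CPM (95%, Clopper-Pearson) in the first isotype sample and from 0.0990 to 2.95 in the second anti-PD1 sample, and they cover counting error only. The fitted log2 fold change from isotype to anti-PD1 was −0.95 (SE 1.09), given as a description because this contrast chose the gene, and it ran from −1.63 without anti-PD1 replicate 1 to −0.45 without anti-PD1 replicate 2. With anti-Lag3 the difference from isotype was 0.29 (SE 0.98, 95% interval −1.69 to 2.27, adjusted p = 0.985, edgeR), and it was −0.81 without anti-Lag3 replicate 1. A further limit concerns counting. A same-strand gene model, *Gm42674*, which had 0 reads in every sample, covers 51.7% of the exon bases of *S100a4* and 60.4% of its last 500. Reads that fall in both models can be left uncounted, so the count of *S100a4* may be too low in all 6 samples.

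*S100a6* had 105 reads, divided unevenly between replicates. The isotype samples held 7 and 36, the anti-PD1 samples 5 and 20, and the anti-Lag3 samples 19 and 18, which is 3.30 and 14.5, 2.40 and 8.18, and 8.01 and 6.69 CPM. The groups overlapped. The replicates differed 4.39-fold with isotype and 3.41-fold with anti-PD1 but 1.20-fold with anti-Lag3, and the second sample of the isotype and anti-PD1 groups was the high one. The log2 fold change from isotype to anti-PD1 was −0.74 (SE 0.58), again as a description. It became 0.70 without isotype replicate 2, so its sign rested on that sample, and without anti-PD1 replicate 1 it was −0.15. With anti-Lag3 the difference from isotype was −0.31 (SE 0.55, 95% interval −1.42 to 0.81, adjusted p = 0.969, edgeR), and that too changed sign, to 1.14, without isotype replicate 2. Fewer cells that carry a transcript and less transcript per cell cannot be told apart in bulk samples such as these.

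**Figure D1:**
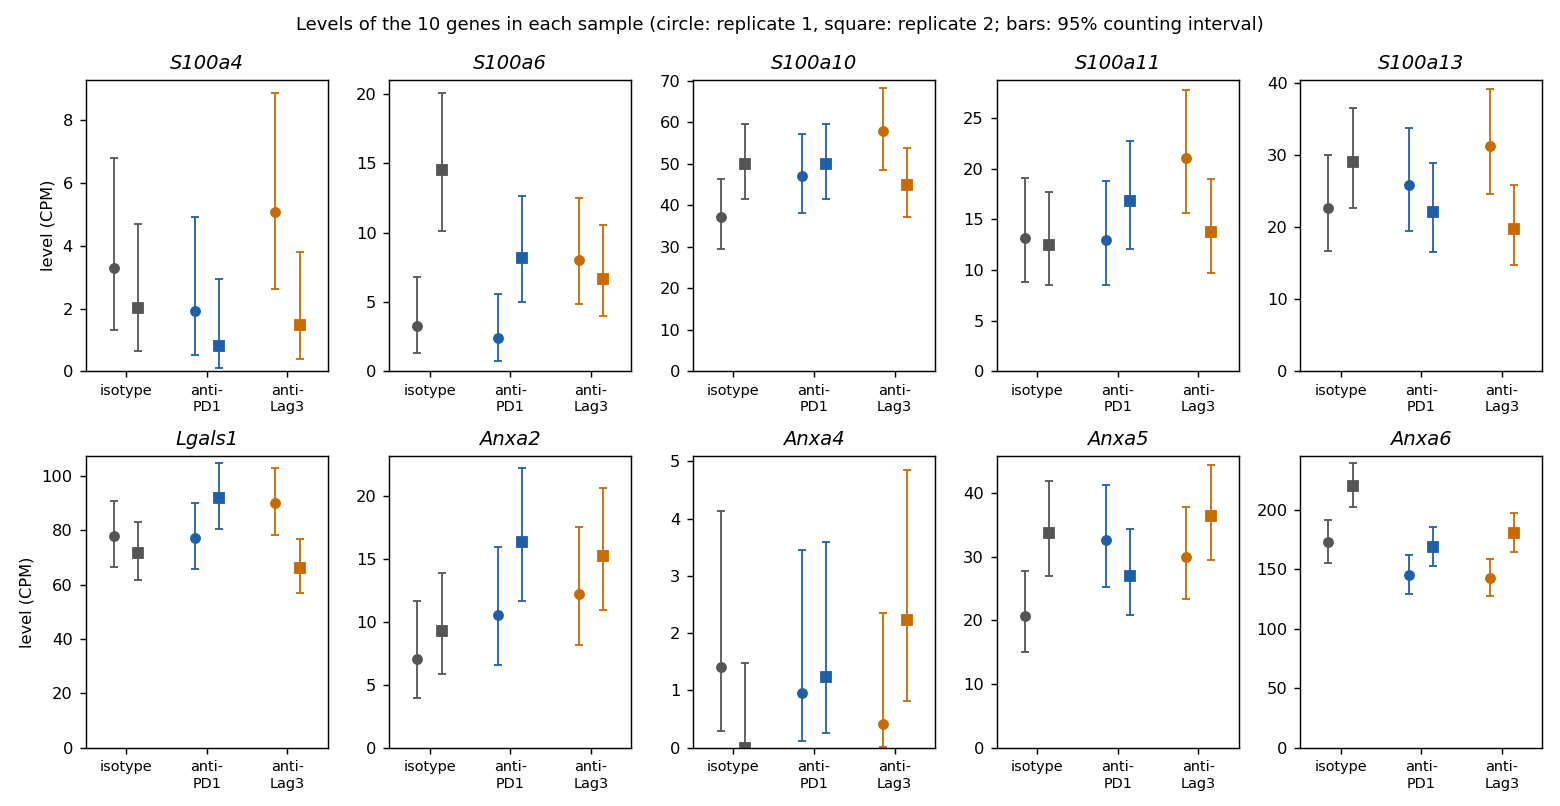
Level of each of the 10 genes in CPM (vertical axes, linear from 0, a scale per gene) in the 2 isotype, 2 anti-PD1, and 2 anti-Lag3 samples. Circles are replicate 1 and squares replicate 2, and bars are 95% Clopper-Pearson counting intervals. *S100a6* differs 4.39-fold between the isotype samples, and *Anxa6* is lower in both anti-PD1 samples than in both isotype samples.

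*S100a10* and *Anxa2* encode subunits of a membrane complex that binds plasminogen, in which S100a10, which has lost calcium binding, is held by annexin A2. *S100a10* stood at 37.2 and 49.9 CPM with isotype, 47.0 and 49.9 with anti-PD1, and 57.8 and 44.9 with anti-Lag3. All 3 groups overlapped. *Anxa2* stood at 7.07 and 9.26 CPM with isotype, 10.5 and 16.4 with anti-PD1, and 12.2 and 15.2 with anti-Lag3, from 15 to 41 reads per sample. Both antibody groups lay above both isotype samples. Its log2 fold change was 0.72 (SE 0.41) with anti-PD1 and 0.74 (SE 0.41, 95% interval −0.08 to 1.57) with anti-Lag3, where the adjusted p was 0.851 (edgeR) over all genes tested. The isotype samples serve both comparisons, so these differences are not independent of each other, and neither passed the test. Without anti-PD1 replicate 2 the first became 0.36. *S100a10* had a log2 fold change of 0.15 (SE 0.22) with anti-PD1 and 0.23 (SE 0.21, adjusted p = 0.946, edgeR) with anti-Lag3.

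*S100a11*, which encodes a partner of annexin A1, and *S100a13*, which takes part in the export of proteins that lack a signal peptide, passed no test. *S100a11* stood at 13.2 and 12.5 CPM with isotype, 12.9 and 16.8 with anti-PD1, and 21.1 and 13.7 with anti-Lag3. The anti-Lag3 samples lay above both isotype samples, with a log2 fold change of 0.43 (SE 0.36, adjusted p = 0.937, edgeR) that fell to 0.09 without anti-Lag3 replicate 1. *S100a13* ranged from 19.7 to 31.2 CPM, and both of these extremes were anti-Lag3 samples. Its log2 fold change was −0.11 (SE 0.29) with anti-PD1 and −0.03 (SE 0.29, adjusted p = 0.995, edgeR) with anti-Lag3. *S100a11* and *S100a10* lie close together (chr3:93520488-93526287 and chr3:93555080-93564643, 28792 bases and 1 gene apart), and *S100a13* lies at chr3:90514435-90524581.

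*Lgals1* (chr15:78926725-78930465) encodes galectin-1, which binds CD45 and other glycoproteins of the T cell surface and can favor death of activated T cells. Its levels were 77.8 and 71.6 CPM with isotype, 77.1 and 92.0 with anti-PD1, and 89.8 and 66.1 with anti-Lag3, from 161 to 225 reads per sample. The lowest and the highest anti-Lag3 values enclosed both isotype values, and anti-PD1 overlapped isotype as well. The log2 fold change was 0.18 (SE 0.18) with anti-PD1 and 0.06 with anti-Lag3 (95% interval −0.30 to 0.42, adjusted p = 0.985, edgeR). At this depth the interval with anti-Lag3 covers ratios to isotype from 0.812 to 1.34.

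*Anxa6* (chr11:54979108-55033445, minus strand), a large annexin of endosomes and the plasma membrane, had 2451 reads and was the most precisely measured of the 10. Its levels were 172 and 220 CPM with isotype, 145 and 168 with anti-PD1, and 143 and 181 with anti-Lag3. Both anti-PD1 samples lay below both isotype samples, whereas the second anti-Lag3 sample lay between them. The mean was 196 ± 33.7 CPM with isotype, 157 ± 16.8 with anti-PD1, and 162 ± 26.9 with anti-Lag3 (SD, n = 2). The log2 fold change was −0.33 (SE 0.14) with anti-PD1, which came to −0.14 without isotype replicate 2, and −0.28 (SE 0.14, 95% interval −0.57 to 0.00, adjusted p = 0.834, edgeR) with anti-Lag3, which came to −0.092 without isotype replicate 2 and −0.13 without anti-Lag3 replicate 1. In each group replicate 2 was the higher sample, by 1.28-fold, 1.16-fold, and 1.27-fold.

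*Anxa5* (chr3:36448923-36475894, minus strand), known as the protein used to label phosphatidylserine on dying cells, stood at 20.7 and 33.8 CPM with isotype, 32.6 and 27.0 with anti-PD1, and 29.9 and 36.4 with anti-Lag3. The isotype samples spanned the anti-PD1 ones, and the log2 fold change was 0.11 (SE 0.27) with anti-PD1 and 0.27 (SE 0.27, adjusted p = 0.950, edgeR) with anti-Lag3. *Anxa4*, a membrane-binding annexin found mainly in epithelia, had 15 reads over the 6 samples, 3 and 0 with isotype, 2 and 3 with anti-PD1, and 1 and 6 with anti-Lag3. In all, 5 of the 6 samples were at or under the floor of 3 reads, so its fitted values are not read as folds. *Anxa2* lies at chr9:69453620-69491795 and *Anxa4* at chr6:86736840-86793584 (minus strand).

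Across the family, none of the 10 genes was called between anti-PD1 and isotype (adjusted p under 0.05, edgeR), where 107 of 11877 genes tested were called, 0.901%. At an unadjusted p under 0.05 there was 1 of 10 (*Anxa6*), beside 8.12% of all genes. The groups did not overlap for 3 of 10, *Anxa2* higher and *S100a4* and *Anxa6* lower, beside 37.4% of all genes. Nothing is read from these counts because the contrast chose part of the list. The fitted values, that of *Anxa4* included, were above 0 for 6 genes and below 0 for 4, with a median of 0.13 on the log2 scale beside 0.00 for all genes tested.

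Between anti-Lag3 and isotype, which the choice did not use but which shares its isotype samples, 0 of 10 were called, with 5 genes called in all (0.0421%). None of the 10 reached an unadjusted p under 0.05, beside 5.96% of all genes. *Anxa2* and *S100a11* did not overlap between groups, 2 of 10 beside 34.6%. The median log2 fold change was 0.25, with 7 genes above 0. DESeq2 and limma-voom also called 0 of the 10 in either comparison, though DESeq2 gave *Anxa4* no adjusted p between anti-PD1 and isotype.

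The direct comparison of anti-PD1 with anti-Lag3 shares the anti-PD1 samples with the choice. Again 0 of 10 were called by edgeR, DESeq2, or limma-voom, beside 36 genes in all (0.303%), 0 reached an unadjusted p under 0.05 (6.53% of all genes), and 0 of 10 had groups that did not overlap (35.9%). Among the 8 genes not chosen on their values, adjusted p ran from 0.979 to 0.995, and fitted differences for the 7 of them other than *Anxa4* lay between −0.22 (*S100a11*, SE 0.35) and 0.13 (*Lgals1*, SE 0.18). *S100a4* had −1.24 (SE 1.06) and *S100a6* −0.43 (SE 0.59), given as values. With a replicate left out the first ran from −1.92 without anti-PD1 replicate 1 to −0.14 without anti-Lag3 replicate 1, and the second became 0.16 without anti-PD1 replicate 1. *Anxa2*, higher than isotype in both antibody groups, differed between them by −0.02 (95% interval −0.80 to 0.75).

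**Figure D2:**
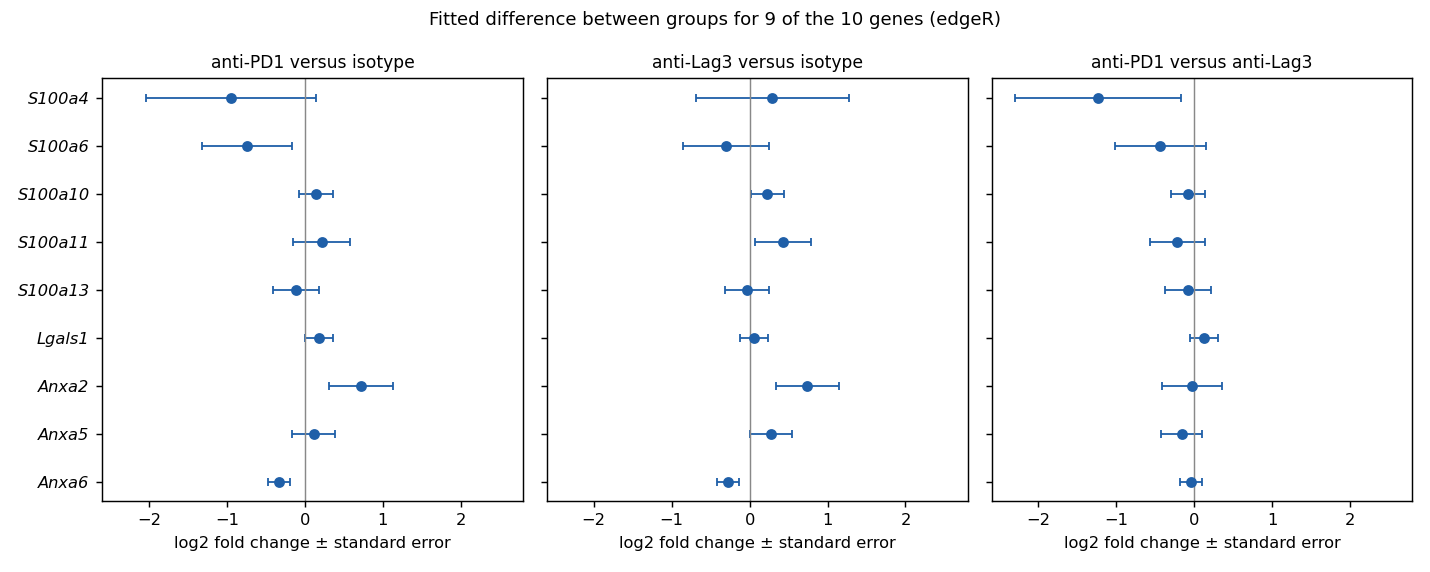
Fitted log2 fold change of 9 of the 10 genes (horizontal axis; *Anxa4*, with 15 reads, is left out) from edgeR, for anti-PD1 versus isotype, anti-Lag3 versus isotype, and anti-PD1 versus anti-Lag3. Points are the estimates and bars the standard errors, widest for *S100a4*, and 0 of the 10 genes were called in any comparison.

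The other S100, galectin, and annexin genes mostly had too few reads to test. Of 29 further family members, 27 were in the table, 13 had 0 reads in every sample, and 10 passed the filter. None of the 10 was called in any of the 3 comparisons, and their median log2 fold change was −0.53 with anti-PD1 and −0.52 with anti-Lag3 against isotype, beside 0.00 for all genes in both. With anti-PD1 4 were above 0 and 6 below. The median rests in part on sparse genes. *S100a8* and *S100a9*, which are also neutrophil markers, had 55 and 51 reads and a SE of 0.79 each with anti-PD1. *Lgals9*, which encodes galectin-9, a ligand of the inhibitory receptor Tim-3, stood at 115 and 94.2 CPM with isotype, 73.3 and 75.6 with anti-PD1, and 98.7 and 78.4 with anti-Lag3. Both anti-PD1 samples were below both isotype samples, with a log2 fold change of −0.49 (SE 0.17, adjusted p = 0.252, edgeR). *Lgals8*, encoding galectin-8, stood at 18.8 and 19.3 CPM with isotype, 8.15 and 16.4 with anti-PD1, and 10.1 and 7.06 with anti-Lag3, so that all 4 antibody samples were lower, with log2 fold changes of −0.62 (SE 0.38, adjusted p = 0.739, edgeR) and −1.16 (SE 0.39, adjusted p = 0.642, edgeR). Groups without overlap were found for 37.4% of all genes between anti-PD1 and isotype and for 34.6% between anti-Lag3 and isotype. *Anxa7* varied from 13.7 to 17.2 CPM. *Anxa1*, which encodes a partner of S100a11, had 1 read in all 6 samples together.

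**Figure D3:**
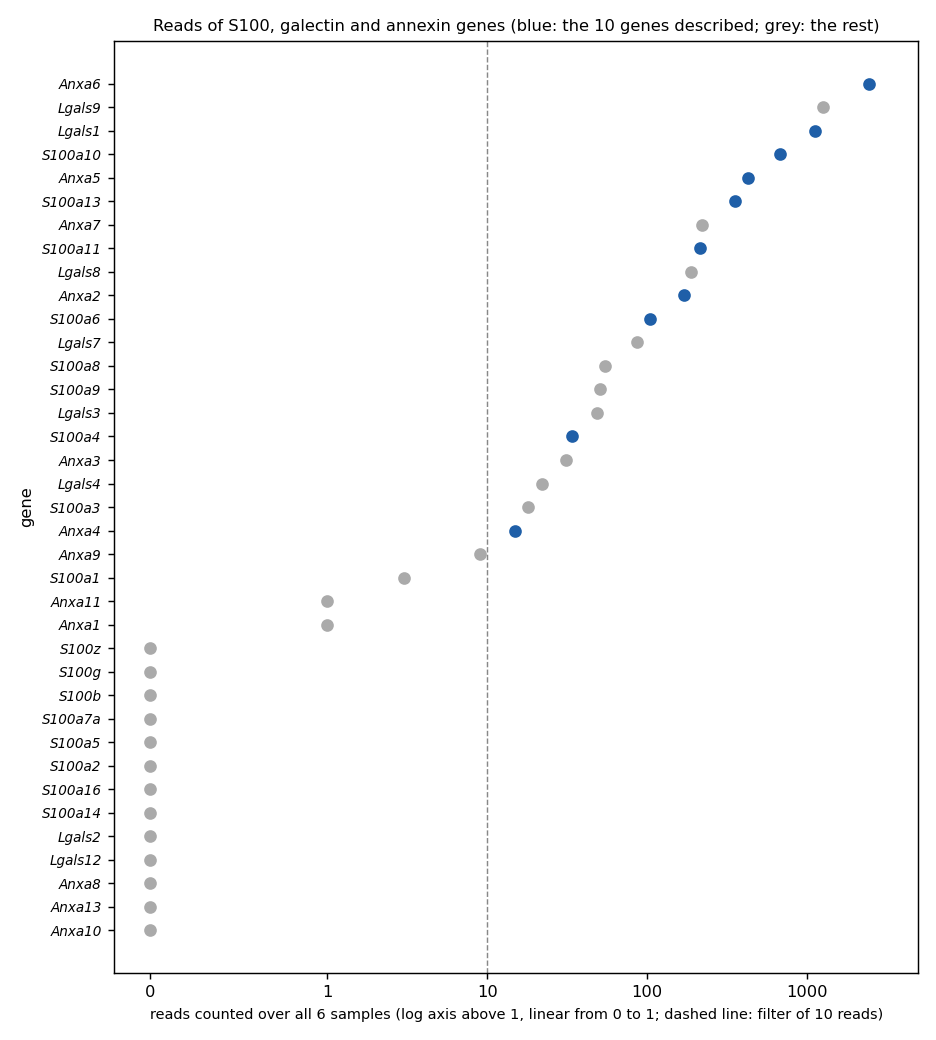
Reads counted over all 6 samples (horizontal axis, log scale above 1 and linear from 0 to 1) for the 10 genes described (blue) and the 27 other family members in the count table (grey), with a dashed line at the filter of 10 reads. The points show how much data each gene had, not its level relative to other genes, and *S100a4* (34 reads) and *Anxa4* (15 reads) lie near the filter.

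Genes whose products bind these proteins gave no call. Of 20 such genes, 18 were tested and 0 were called in any comparison. Of all genes, 0.901% were called with anti-PD1 and 0.0421% with anti-Lag3 against isotype, and 0.303% between the antibodies. At such shares 0 calls in 18 genes says little about them. The median log2 fold change was 0.02 with anti-PD1 and 0.01 with anti-Lag3. *Ptprc* (CD45, a galectin-1 ligand) ranged from 1879 to 2055 CPM and *Myh9* (the myosin bound by S100a4) from 480 to 582.

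Genes of effector and memory T cells, the setting in which *S100a4* and *S100a6* are best known, likewise gave 0 calls among 19 tested in any comparison, beside the same low shares of all genes. Their median was 0.03 with anti-PD1. *Tmsb4x*, *Tagln2*, and *Itgal*, the members with the most CPM, had log2 fold changes of −0.11 (SE 0.08), 0.14 (SE 0.10), and −0.16 (SE 0.12) with anti-PD1.

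Among 11 genes of naive and resting T cells, 3 were called between anti-PD1 and isotype, beside 0.901% of all genes, and 0 in the other comparisons. The median log2 fold change of the list was −0.33 with anti-PD1 and 0.05 with anti-Lag3, beside 0.00 for all genes tested. The list was chosen with earlier results of these data known, so the count is a description. *Satb1*, a chromatin organizer, rose (log2 fold change 0.53, SE 0.08, adjusted p = 7.54e-05, edgeR). The transcription factors *Lef1* and *Foxp1*, which maintain naive T cells, fell (−0.55, SE 0.14, adjusted p = 0.0412, and −0.41, SE 0.10, adjusted p = 0.0190, edgeR). None of these 3, named because they were called, overlapped between the groups, beside 37.4% of all genes. *Lef1* and *Foxp1* were no longer called when isotype replicate 2 or either anti-PD1 replicate was left out (*Lef1* −0.43 to −0.56 and *Foxp1* −0.37 to −0.44 in those fits), and DESeq2 did not call *Lef1*. Between anti-PD1 and anti-Lag3, *Satb1* had a log2 fold change of 0.34 (SE 0.08, adjusted p = 0.0545, edgeR). It was called there by DESeq2 (adjusted p = 0.00983) and limma-voom (adjusted p = 0.00196). In edgeR the call depended on the setting. *Satb1* was not called under the other scalings (adjusted p = 0.0552 and 0.0691) or with filterByExpr (adjusted p = 0.0706). It was called with a filter of 1 read, a replicate block, 4 samples only, and without *Gm42418* and mitochondrial ribosomal RNA. Omitting any single anti-PD1 or anti-Lag3 sample gave values between 0.33 and 0.36. *Tcf7*, the remaining gene of this list with high CPM, was not called.

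The summed levels of several marker lists were lower in both antibody groups than with isotype. Calls in these lists stand beside the 0.901% of all genes called between anti-PD1 and isotype. Of the 7 regulatory T cell markers tested, 1 fell with anti-PD1, *Izumo1r* (folate receptor 4; −0.96, SE 0.23, adjusted p = 0.0209, edgeR), a call not made by DESeq2 or without isotype replicate 2 (−0.63) or anti-PD1 replicate 1 (−0.70). The summed level of the list was 304 and 348 CPM with isotype, 250 and 283 with anti-PD1, and 285 and 294 with anti-Lag3. *Foxp3*, the defining factor of that lineage, stood at 2.36 and 16.1 CPM with isotype, 3.35 and 6.13 with anti-PD1, and 5.06 and 12.3 with anti-Lag3. Replicate 2 was the higher sample in each group for *Foxp3* and for *Izumo1r*. The other named genes of the list did not share this. *Ikzf2* was lower in replicate 2 with anti-PD1 (186 and 181 CPM) and anti-Lag3 (178 and 170), and *Gpr83* with isotype (21.7 and 18.9). *Ikzf2* and *Gpr83*, the other leading genes of this list, were not called.

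Markers of cells outside the gate, in which S100 proteins, galectin-1, and annexins are also made, were detected at low levels. The summed level of 16 macrophage and monocyte markers, led by *Cst3*, *Lyz2*, and *Vcam1*, was 116 and 109 CPM with isotype, 65.2 and 82.2 with anti-PD1, and 89.0 and 89.9 with anti-Lag3, and of 14 tested 1, *C1qa*, fell with anti-PD1, a call not made by DESeq2 or limma-voom or with any isotype or anti-PD1 replicate left out (log2 fold changes −2.29 to −3.04). The 10 neutrophil markers summed to 10.4 and 21.3, 6.71 and 8.59, and 4.22 and 4.46 CPM, led by the alarmins *S100a8* and *S100a9* and by *Mmp8*, of which *S100a8* was highest in isotype replicate 2 at 10.9 CPM. The 10 B cell markers summed to 125 and 137, 69.0 and 55.6, and 83.5 and 123 CPM, and *Igkc* and *Ighm* fell with anti-PD1 (−2.51 and −0.89 on the log2 scale). Neither was called without anti-PD1 replicate 2 (−2.00 and −0.74), and *Ighm* was not called without isotype replicate 2 (−0.77) or by DESeq2. *Ighm* was also called lower with anti-PD1 than with anti-Lag3 (−0.88, SE 0.19, adjusted p = 0.0227, edgeR), though not by DESeq2. It stood at 82.5 and 95.8 CPM with isotype and at 70.0 and 108 with anti-Lag3. Dendritic cell markers (*Bst2*, *Cd74*, *H2-Aa*) summed to 74.8 to 106 CPM, CD8 T and NK cell markers (*Cd8b1*, *Gzma*, *Cd8a*) to 35.7 to 65.5, and erythroid and platelet markers (*Hbb-bs*, *Hbb-bt*, *Hba-a1*) to 19.6 to 51.6. Both isotype samples lay above all 4 antibody samples for the summed macrophage, neutrophil, B cell, dendritic, CD8 and NK, and regulatory markers. *Bst2* and *Ikzf2* made up most of the dendritic and regulatory sums, and *Cst3* led the macrophage sum. With anti-PD1 their log2 fold changes were 0.08, −0.07, and 0.19. The leading genes *Ighm*, *Cd8b1*, and *S100a8* of the B cell, CD8 and NK, and neutrophil lists had −0.89, −0.60, and −1.13. A sum is therefore not the level of 1 cell type. The part of cells outside the gate in the values of the 10 genes was not tested.

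**Figure D4:**
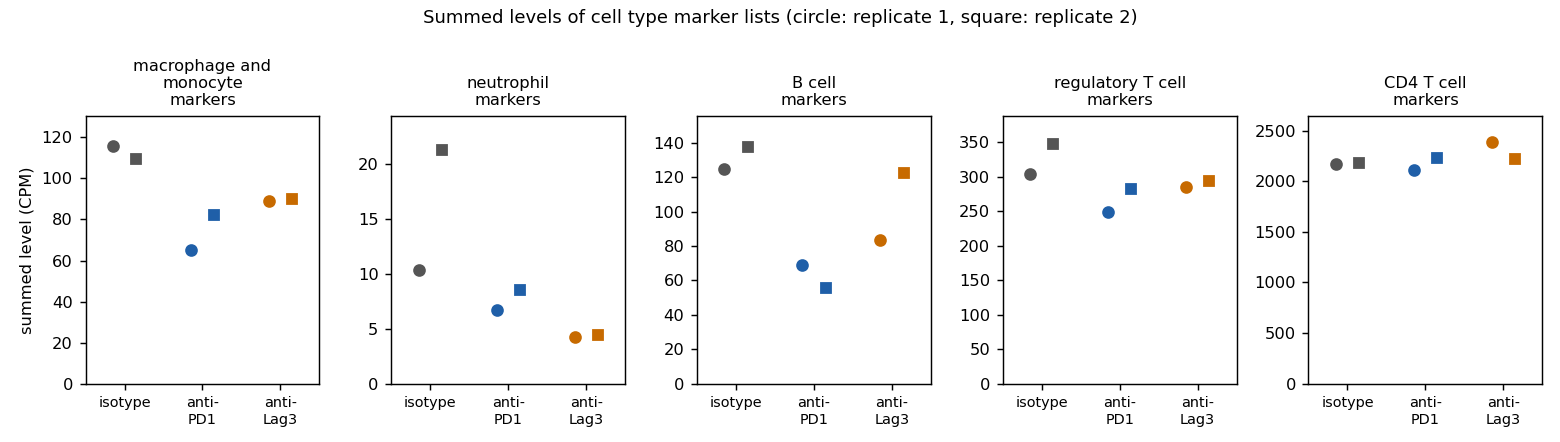
Summed level in CPM (vertical axes, linear from 0) of 5 marker lists in each sample, circles for replicate 1 and squares for replicate 2. Macrophage and monocyte markers are at 116 and 109 with isotype and at 65.2 and 82.2 with anti-PD1, while the sum over CD4 T cell markers, among which *Cd5* rose with anti-PD1, is between 2110 and 2388.

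The genes whose levels followed *S100a4* and *S100a6* most closely were found by Pearson's r of log2 CPM over the 6 samples, among 7508 genes with a mean of at least 20 reads. For *S100a4* these were *Hdgfl3* (r = 0.99), *Atr*, *Gcat*, *Tmsb4x*, and *R3hdm4* (r = 0.97), and for *S100a6* *Xndc1* (r = 0.99), *Mier3*, *Arhgap9*, *Os9*, and *Shcbp1* (r = 0.97). With so many genes and 6 points, 28 and 61 genes passed r = 0.9, the points share their libraries, and the values are a description only.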

How the data were processed

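RNA of sorted mouse splenic CD4+ T cells, positive for both Timer colors, was measured in 6 samples, 3 groups of 2 taken from the sample titles. QuantSeq 3′ libraries were sequenced on a NextSeq 500, and per the labels and the methods the authors aligned trimmed reads with STAR 2.5.2a to GRCm38, and HTSeq-count gave the reads of each gene. The values used are the raw counts the authors deposited, without normalization. The strand setting and annotation release are not given in the sources used here. A deposited rlog table was not used. The methods state that 1 further replicate batch, of 3 samples sorted and processed together, was left out as an outlier, and it was not analysed here. Whether the remaining samples of the same number also shared a batch is not stated.

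Genes with at least 10 reads over the 6 samples (11877) were fitted together in edgeR 4.0.16 (R 4.3.3; TMM, estimateDisp, glmQLFit, glmQLFTest, two-sided), with Benjamini-Hochberg adjustment over all genes and a threshold of 0.05. Standard errors are the fold change divided by the square root of F, and 95% intervals use 40.2 degrees of freedom. CPM are counts over the TMM-scaled library size, and log2 CPM for likeness used a prior count of 2. The fits were tested on simulated counts. No pair of replicates was alike within counting error (chi-square over degrees of freedom 2.65 to 3.29). Symbols matched 47224 of 47643 identifiers. RefSeq promoter windows matched 7 of the 10 genes. *S100a10*, *Lgals1*, and *Anxa6* had none.

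The 10 genes and the gene lists were chosen with earlier results of these data known. Named genes are the 10, every list gene called (of T cell and family lists), the 3 with the most CPM in each list, and the 5 most like *S100a4* and *S100a6*. Values of 1 such gene are not reported here. *Foxp3*, *Anxa1*, *S100a8*, *Gm42674*, *C1qa*, *Cd5*, *Cd3d*, *Cd3e*, *Cd3g*, *Cd4*, *Igkc*, *Ighm*, and *Cacybp* were named after their values were seen. Alternatives were DESeq2 1.42.0, limma-voom (limma 3.58.1), other scalings and filters, 4 samples at a time, each replicate left out, a replicate block, and a fit without *Gm42418* (17.4 to 21.0% of reads) and mitochondrial ribosomal RNA.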

Additional observations from a re-analysis of the deposited data

How the results depend on the processing

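None of the 10 genes was called in any of the 3 comparisons under any of the 15 alternatives. *S100a4* and *Anxa4* did not pass the filterByExpr filter and were not tested under it. DESeq2 gave *Anxa4* no adjusted p between anti-PD1 and isotype. Of 444 refitted fold changes of the 10 genes, 415 kept their sign and 29 changed it, 28 of them with a replicate left out. The other was *Anxa4* between anti-PD1 and anti-Lag3, at 0.038 with limma-voom. Depth limits *Anxa4* (15 reads), *S100a4* (34), and *S100a6* (105) most, and the causes of the changes were not tested. Fitted values of *Anxa4* are given as the fits return them and are not read as folds.

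With a replicate left out, log2 fold changes that changed sign between anti-PD1 and isotype ran from −1.90 to 0.70 for *S100a6*, −0.040 to 0.38 for *S100a10*, −0.27 to 0.080 for *S100a13*, −0.35 to 4.47 for *Anxa4* (4.47 without isotype replicate 1, when isotype has 0 reads, so it depends on the fit's prior count and is no bound), and −0.18 to 0.52 for *Anxa5*. Between anti-Lag3 and isotype they ran from −0.81 to 0.94 for *S100a4*, −0.98 to 1.14 for *S100a6*, −0.40 to 0.28 for *S100a13*, −0.18 to 0.27 for *Lgals1*, −0.60 to 4.76 for *Anxa4* (4.76 again against 0 reads), −0.022 to 0.68 for *Anxa5*, and −0.40 to 0.18 for *Izumo1r*. Between anti-PD1 and anti-Lag3 they ran from −1.60 to 0.16 for *S100a6*, −0.26 to 0.11 for *S100a10*, −0.51 to 0.12 for *S100a11*, −0.39 to 0.28 for *S100a13*, −0.092 to 0.36 for *Lgals1*, −0.39 to 0.25 for *Anxa2*, −0.98 to 1.27 for *Anxa4*, and −0.20 to 0.13 for *Anxa6*.

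The counts of all genes called moved more. Between anti-PD1 and isotype they were 107 as reported (75 higher, 32 lower), 175 (120 and 55) with 4 samples only, 72 (53 and 19) with DESeq2, and 53 to 185 (42 to 122 and 11 to 63) with a replicate left out, lowest without isotype replicate 2 and highest without anti-Lag3 replicate 1. Between anti-Lag3 and isotype they were 5 as reported (3 higher, 2 lower), 1 (0 and 1) with DESeq2, 6 (2 and 4) with limma-voom, 0 (0 and 0) with filterByExpr and with 4 samples only, 20 (12 and 8) with a filter of 1 read, 3 (2 and 1) without *Gm42418* and the ribosomal RNA genes, and 0 to 19 (0 to 10 and 0 to 14) with a replicate left out. Between anti-PD1 and anti-Lag3 they were 36 as reported (29 higher, 7 lower), 16 (13 and 3) with DESeq2, 37 (33 and 4) with limma-voom, 25 (22 and 3) with filterByExpr, 58 (47 and 11) with a filter of 1 read, 51 (44 and 7) with 4 samples only, and 7 to 59 (6 to 42 and 1 to 17) with a replicate left out.

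With the replicate number as a replicate block, 144, 6, and 46 genes were called in the 3 comparisons, and 0 of the 10. Differences between replicates correlated at 0.04, 0.03, and −0.05 between pairs of groups. In every group replicate 2 had more total counts and a lower share of *Gm42418* (21.0 and 19.4% with isotype, 19.1 and 17.7% with anti-PD1, 18.7 and 17.4% with anti-Lag3). The correlations do not decide whether the numbers mark batches. The labels do not say so, and the reported fit left the samples unpaired.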
